A study of Mus musculus with 16 samples.

Results

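The type I interferon response genes are 37 genes that cells switch on when interferon alpha or beta binds its receptor. They were taken by symbol from a fixed list, and all 37 were found among the 38003 genes of a count matrix from single lung cells of mice. The matrix held 80449 cells, and the members gave 157448 of its 271140315 transcripts, or 0.0581%. The rule used names and no measured value. Cells came from digested lungs, were sorted for live cells and were barcoded with the split-pool kit Evercode WT v3. With seeded pancreatic ductal adenocarcinoma (PDAC) cells there were 2 samples given 6-OHDA (6-OHDA-PDAC), 2 given BIBO3304 (BIBO3304-PDAC) and 2 given vehicle (vehicle-PDAC). Without seeded cells there were 3 with 6-OHDA, 3 with BIBO3304 and 3 with vehicle. 6-OHDA (6-hydroxydopamine) is a toxin taken up by noradrenergic nerve endings, and BIBO3304 is an antagonist of the neuropeptide Y receptor Y1. Groups were taken from the authors' table of cells, whose mark of seeding (IV) was read as PDAC cells seeded because the annotated cancer cells sit in those samples. The labels used here give no strain, sex or age.

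Type I interferons signal through the receptor of Ifnar1 and Ifnar2 and the kinases Jak1 and Tyk2. These act on transcription factors, among them STAT2, which joins IRF9 in the complex ISGF3. ISGF3 binds the interferon-stimulated response element in promoters and switches on genes that block viruses, sense viral RNA or feed back on the pathway. In the lung this programme is best known from viral infection, and a low level of it is present without infection.

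Promoters of some members that carry the results below hold the letters of that element. RefSeq promoter windows on GRCm38.p6, each from 250 bases before to 50 bases after a gene's start, were matched for 27 of 37 members. The core GAAANNGAA, searched on both strands with overlapping matches kept, was in the windows of 15 of these 27 genes (55.6%), against 9.76% of all 27025 genes with a window. A stricter form with 1 more A at its end was in 12 of the 27 (44.4%), against 3.99% of all genes. Stretches upstream of the start are shown for 9 members, Ifit1, Ifit3, Isg15, Rsad2 and Stat2 as members with values in single samples below and Ifih1, Bst2, Trim30a and Adar as members with tests named below. Capitals mark the matches, which read TTCNNTTTC where the match lies on the other strand.
Ifit1, chr19:34640755-34640838, plus strand: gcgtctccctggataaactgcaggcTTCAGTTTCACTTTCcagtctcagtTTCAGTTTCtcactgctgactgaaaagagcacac
Ifit3, chr19:34583383-34583460, plus strand: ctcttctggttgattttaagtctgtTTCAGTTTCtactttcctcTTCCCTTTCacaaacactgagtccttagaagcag
Isg15, chr4:156200851-156200921, minus strand: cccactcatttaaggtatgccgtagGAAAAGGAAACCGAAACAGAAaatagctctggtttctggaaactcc
Rsad2, chr12:26456538-26456596, minus strand: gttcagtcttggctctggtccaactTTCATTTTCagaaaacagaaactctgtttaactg
Stat2, chr10:128270252-128270310, plus strand: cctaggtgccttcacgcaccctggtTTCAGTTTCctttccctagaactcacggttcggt
Ifih1, chr2:62646334-62646392, minus strand: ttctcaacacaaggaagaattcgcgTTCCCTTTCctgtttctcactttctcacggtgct
Bst2, chr8:71537563-71537627, minus strand: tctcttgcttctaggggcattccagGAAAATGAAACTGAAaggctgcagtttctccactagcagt
Trim30a, chr7:104465195-104465253, minus strand: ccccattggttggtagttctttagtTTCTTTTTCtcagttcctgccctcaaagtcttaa
Adar, chr3:89730468-89730502, plus strand: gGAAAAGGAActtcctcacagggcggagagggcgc
The first match in the stretch shown began 109 bases before the start in Ifit1, 121 in Ifit3, 78 in Isg15, 119 in Rsad2, 221 in Stat2, 112 in Ifih1, 130 in Bst2, 35 in Trim30a and 249 in Adar. Ifit3 held 3 matches in its whole window, of which 2 are shown. Isg15 held 3 overlapping matches and Trim30a a single one, so the members differed in the number of matches as well as in their place. The 12 matched members without the core in these windows were Ifit2, Oasl1, Oasl2, Irf7, Irf9, Cmpk2, Ifi35, Xaf1, Dtx3l, Herc6, Sp100 and Lgals3bp. Windows of Mx1, Mx2, Oas2, Usp18, Dhx58, Ifi27l2a, Zbp1, Rtp4, Parp9 and Parp14 were not analysed here. A match is a stretch of letters and no measure of binding.

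Depth ran from 10003796 to 32580698 transcripts and from 3499 to 9157 cells per sample, with a median of 2307 transcripts per cell. No cell barcode was shared between samples. The labels used here do not say whether each numbered sample is its own mouse, and p-values reflect only how far these samples differ among themselves. The authors' 22 cell types were used. Their marker sums matched the names where they were checked, with 6189 to 7657 CPM of 12 alveolar macrophage markers in alveolar macrophages and 1859 to 4643 CPM of 7 neutrophil markers in neutrophils. Annotated cancer cells numbered 33 to 75 in seeded samples except vehicle-PDAC sample 2, which held 0, while the 3 vehicle samples held 2, 1 and 1. The 6-OHDA sample 2 stood apart in the members, with the highest summed level of the 3 6-OHDA samples in 19 of 19 types and of all 15 samples in 11. Results that rest on it are given with and without it where it moved them most, and the values without it by role and by type were chosen after seeing the data.

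Levels were read as CPM, transcripts of a gene scaled to a fixed total of transcripts in a cell type, and because genes differ in length they are compared between cell types for 1 gene at a time. Members were highest in endothelial and blood-borne cells and low in alveolar type 2 (AT2) cells. The summed level of the 37 members had a median over samples of 1541 CPM in general capillary endothelial cells (range 1184 to 2789). Aerocytes, the capillary cells specialised for gas exchange, followed at 1434 CPM (930.6 to 2166) and neutrophils at 1329 CPM (671.3 to 3055). These ranges overlapped, so the order of the first 3 types is not fixed by the samples. B cells had 1047 CPM, monocytes 915.5 CPM, dendritic cells 857.4 CPM and interstitial macrophages 730 CPM. Alveolar fibroblasts had 447.1 CPM (343 to 746.6) and alveolar macrophages, the most numerous type with 23624 cells, 328.9 CPM (266.4 to 398.1). AT2 cells, which make surfactant, had the lowest level of the 19 types fitted, 247.1 CPM (178 to 453.6). AT1 cells, the thin cells of the alveolar wall, and club cells reached the minimum of cells in 2 samples each, which had 457.8 and 537.7 CPM in AT1 cells and 219.4 and 220.5 CPM in club cells, and were not fitted. General capillary cells thus lay above AT2 cells in every sample.

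Each member was also placed by the type in which it was highest. Endothelial cells led for Stat2, Irf9 and the ADP-ribosylation genes. Stat2 had a median of 148.8 CPM in aerocytes (79.95 to 192.9) and Irf9, its partner, 61.63 CPM there. Parp14, an ADP-ribosyltransferase, had 217 CPM in general capillary cells (134.8 to 369.3). Parp9, which acts with the ubiquitin ligase Dtx3l, had 83.01 CPM in aerocytes, and Dtx3l 31.37 CPM in large-vessel endothelial cells. The RNA sensor Ifih1 (MDA5) had 95.59 CPM in general capillary cells, where Ifit1 (15.51), Ifit3b (1.70), Mx2 (35.08), Ifi44 (10.55), Xaf1 (45.96) and Rtp4 (23.56 CPM) were highest too. Herc6, the ligase that attaches ISG15 in mice, was highest in aerocytes with 161.2 CPM, and so were Ifi35 with 41.19 CPM and Lgals3bp with 22.19 CPM.

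Blood-borne cells led for several genes of the 2-5A synthetase family, whose enzymes make the activator of RNase L or resemble those that do. Oas2 (24.42), Oas3 (17.25) and Oasl1 (64.5 CPM), an inhibitor of Irf7 translation in mice, were highest in neutrophils. Rsad2 (viperin) had 28.02 CPM there with a range of 0 to 232.2, the ubiquitin-like Isg15 17.2 CPM and Trim30a 132.5 CPM. Monocytes were highest for Irf7, the factor that amplifies interferon genes, with 30.37 CPM (9.596 to 78.22), for the helicase Dhx58 with 11.21 CPM and for the Z-nucleic acid sensor Zbp1 with 16.79 CPM. Dendritic cells were highest for the tetherin gene Bst2 with 38.81 CPM and the GTPase Mx1 with 28.03 CPM. The nuclear body gene Sp100 (491.7 CPM) and the RNA editor Adar (50.66 CPM) led in B cells, Samd9l (95.32 CPM) in natural killer cells and Oas1a (7.975 CPM) in interstitial macrophages. Other leaders were ciliated cells for the ISG15 protease Usp18 (52.4 CPM) and Cmpk2 (13.79 CPM), mesothelial cells for Oasl2 (76.66 CPM) and Ifi27l2a (35.42 CPM), alveolar fibroblasts for Ifit2 (23.93 CPM) and Ifit3 (6.916 CPM), and cancer cells for the kinase Eif2ak2, PKR (68.42 CPM). For every member the range over samples in the highest type overlapped that in the next one, and the heat map of member by type shows how evenly several of them spread. Ifit3 and Ifit3b are near-identical, so their reads could be split between them.

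**Figure D1:**
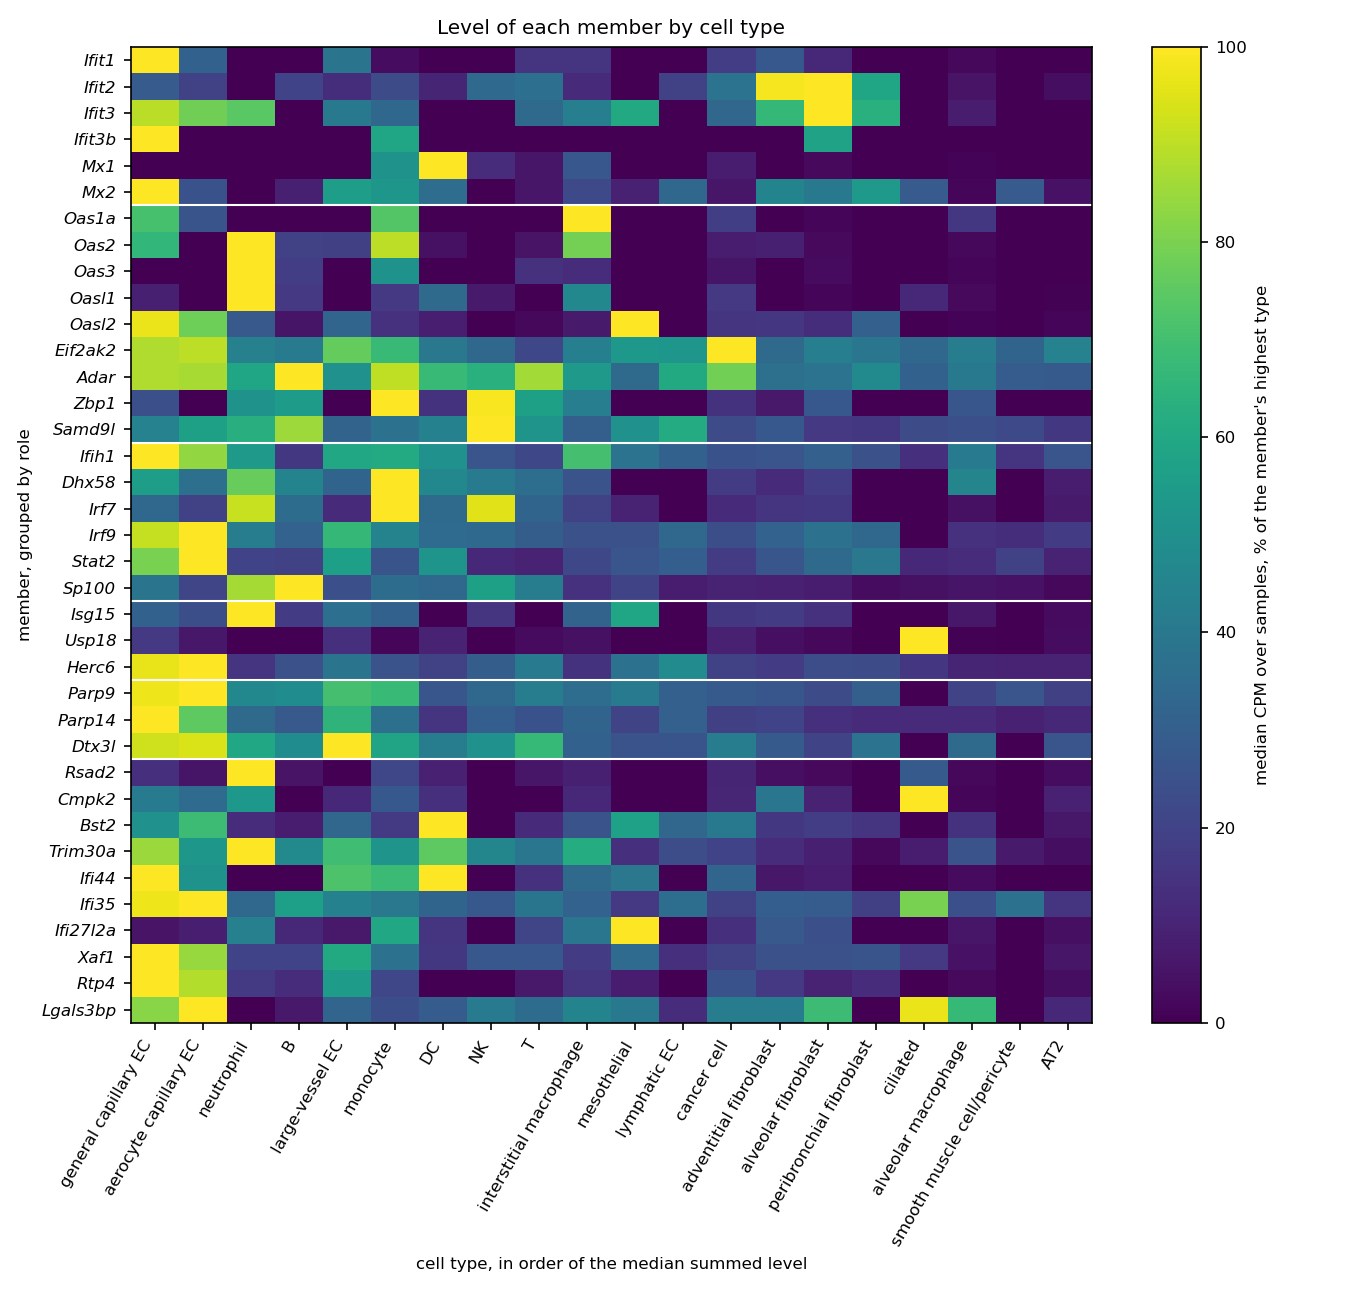
Level of each member (rows, grouped by role) in each cell type measured in at least 5 samples (columns, ordered by median summed level), as the median CPM over samples in percent of that member's highest type. The first columns, general capillary cells, aerocytes and neutrophils, hold the highest values of most rows, and AT2 cells at the right hold low ones.

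For tests, the counts of each cell type were added up within a sample and all genes were fitted together with edgeR's quasi-likelihood test, with p-values adjusted by the Benjamini-Hochberg method over all genes of a type. A gene in 1 type is 1 test, and 0.05 is the threshold. All 37 members passed the filter on low counts in at least 1 type, which gave 275 member tests in 18 types, from 33 in alveolar fibroblasts and 29 each in general capillary cells and monocytes to 1 in ciliated cells. Counts and medians below describe only members that passed. Fold changes are on the log2 scale, ± 1 standard error (SE), and CPM values in comparisons are scaled by TMM. In these sums, fewer responding cells and less RNA per cell cannot be told apart.

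In lungs without PDAC cells, 6-OHDA samples had higher fitted levels of most members than vehicle samples, but no member passed the test. The median log2 fold change of the 275 member tests was 0.49, against medians near 0 over all genes tested in the same types, and 226 of the 275 (82.2%) were above 0. By edgeR 0 member tests passed, where 0.0669% of all tests did, and 56 member tests had an unadjusted p under 0.05. DESeq2 called 0 as well. Levels of the 2 groups did not overlap and were higher with 6-OHDA in 44 member tests (16%), against 6.83% of all tests, and lower in 7 (2.55%), against 7.54% of all tests. Without 6-OHDA sample 2 the median was 0.14 over the 256 member tests that then passed the filter. With 2 samples against 3, groups were then apart and higher in 47 of these (18.4%), against 12.3% of all tests, and lower in 20 (7.81%), against 13.4% of all tests.

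By role, the IFIT and MX genes, whose products bind viral RNA or nucleocapsids, had a median log2 fold change of 0.99 over 21 tests, with groups apart and higher in 7. The ISG15 system of Isg15, Usp18 and Herc6 had 0.59 over 21 tests (5 apart and higher) and the synthetases and other nucleic acid binders 0.52 over 65 (12 apart and higher). In the ISG15 system Herc6 was tested in 16 types, Usp18 in 3 and Isg15 in 2. The values of that system here and below are thus mostly those of Herc6. Parp9, Parp14 and Dtx3l had 0.46 over 39 tests, of which 36 were above 0. Sensors and transcription factors had 0.31 over 65 tests and the remaining effectors 0.40 over 64. Without 6-OHDA sample 2 the medians were 0.28 for the IFIT and MX genes, 0.36 for the ISG15 system, 0.13 for the nucleic acid binders, 0.19 for Parp9, Parp14 and Dtx3l, 0.11 for sensors and transcription factors and -0.028 for the remaining effectors. By member, 35 of 37 had a median over types above 0, and 12 were above 0 in every type tested, among them Irf7 in 7 types, Oasl2 in 8, Ifi27l2a in 5 and Parp14 in 14. The exceptions with a median at or below 0 were Ifit3b, tested in 1 type (-0.19), and Ifi35 in 11 (-0.08). Bst2 ran from -1.95 in large-vessel endothelial cells to 0.99 in general capillary cells, so 1 member could differ in sign between neighbouring types.

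**Figure D2:**
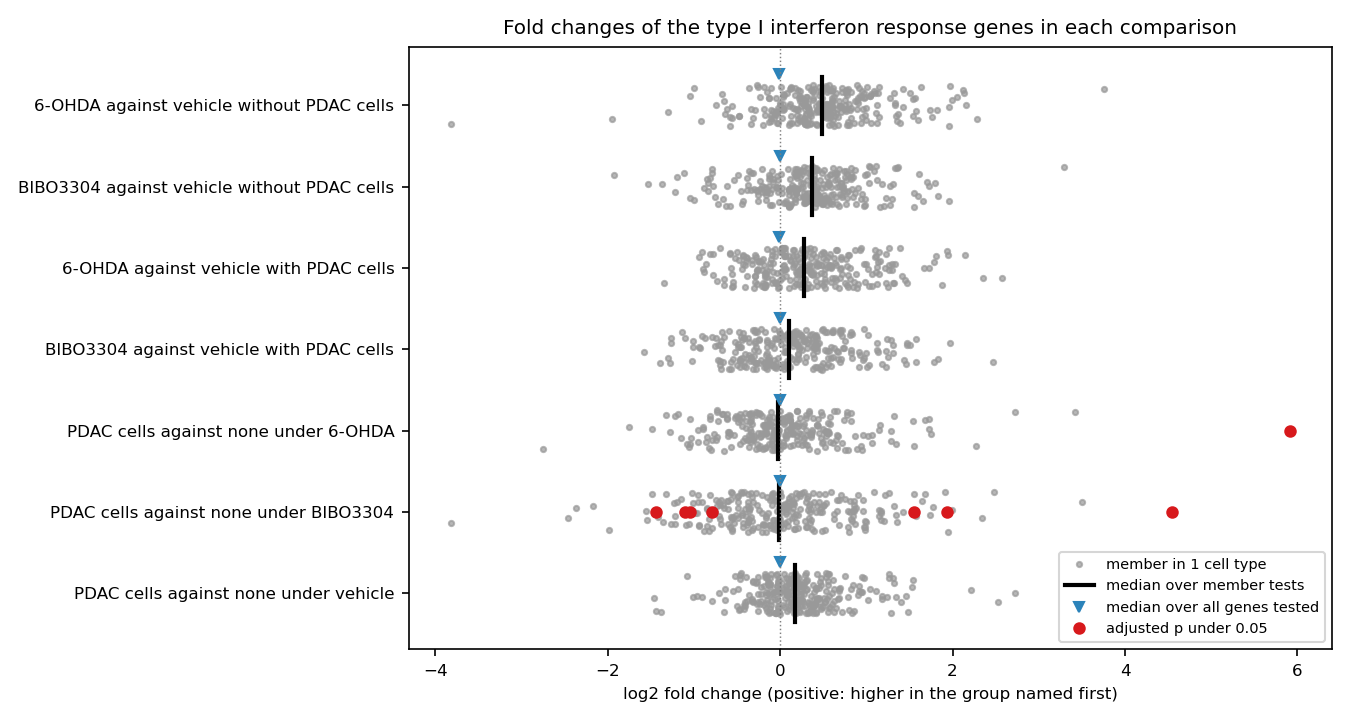
Log2 fold change of each member in each cell type (grey points; red where adjusted p is under 0.05) in the 7 comparisons, with positive values higher in the group named first. Black bars are medians over member tests and blue triangles medians over all genes tested; the 6-OHDA and BIBO3304 comparisons without PDAC cells have bars at 0.49 and 0.37, and the red points are 1 test under 6-OHDA and 7 under BIBO3304 in the comparisons of PDAC cells against none.

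Fitted values were mostly positive in blood and capillary cells and evenly split in alveolar macrophages and AT2 cells. Large-vessel endothelial cells had 11 of 17 member tests above 0, with a median of 0.17. In monocytes all 29 member tests were above 0 with a median of 0.78, in aerocytes all 15 (0.71), in neutrophils all 11 (0.61) and in general capillary cells 27 of 29 (0.61). Dendritic cells had 17 of 19 (0.58), alveolar fibroblasts 29 of 33 (0.52) and interstitial macrophages 18 of 21 (0.50). Alveolar macrophages had 13 of 27 above 0 and a median of -0.03, and AT2 cells 6 of 13 and -0.033. Without 6-OHDA sample 2 aerocytes had a median of 0.62 (15 of 16 above 0), general capillary cells 0.32 (24 of 27), monocytes 0.30 (18 of 24), dendritic cells 0.22, alveolar fibroblasts 0.18, neutrophils 0.093 and interstitial macrophages -0.13. Large-vessel endothelial cells then had a median of -0.26 (7 of 17 above 0), with 2 tests apart and higher and 5 lower. Differences between types were not tested.

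The 5 member tests with the smallest p among those with a mean of at least 20 CPM did not pass. Oasl2 in aerocytes had 90.0, 160 and 61.7 CPM in 6-OHDA samples 1 to 3, against 23.9, 32.2 and 52.9 CPM in vehicle samples. All 3 6-OHDA samples lay above all 3 vehicle samples, and the log2 fold change was 1.51 ± 0.40 (adjusted p = 0.532 by edgeR), or 1.03 without 6-OHDA sample 2. Mx2, an antiviral GTPase, had 53.5, 118 and 48.3 CPM in general capillary cells of 6-OHDA samples, against 22.5, 44.5 and 28.6 CPM in vehicle samples. These groups were apart too, but sample 2 was more than the sum of the other 6-OHDA samples (1.33 ± 0.38, adjusted p = 0.274; 0.83 without it). In monocytes, Stat2 had 38.1, 123 and 56.3 CPM with 6-OHDA, against 21.2, 36.7 and 26.6 CPM with vehicle. The lowest 6-OHDA sample lay just above the highest vehicle sample (1.37 ± 0.41, adjusted p = 0.806; 0.76 without sample 2). Irf7 in monocytes had 42.7, 74.2 and 36.8 CPM with 6-OHDA, against 30.3, 12.2 and 15.2 CPM with vehicle, again apart (1.39 ± 0.42, adjusted p = 0.806; 1.0 without sample 2). Oas2 had 27.5, 76.5 and 26.6 CPM with 6-OHDA, against 18.2, 15.3 and 3.8 CPM with vehicle (1.74 ± 0.54, adjusted p = 0.806; 1.04 without sample 2).

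Other members followed in the same types were lower in count and less regular. In general capillary cells Ifit1 had 15.5, 66.1 and 21.6 CPM with 6-OHDA, against 10.9, 12.7 and 13.9 CPM with vehicle, so that groups did not overlap. Ifit3 there had 9.85, 28.6 and 4.99 CPM, against 3.88, 3.18 and 6.07 CPM with vehicle, and overlapped. Bst2 overlapped as well, with 15.5, 51.8 and 33.3 CPM under 6-OHDA, against 13.95, 25.4 and 15.6 CPM. Each of the 3 was highest in 6-OHDA sample 2. Rsad2 in monocytes had 1.53, 33.5 and 16.4 CPM with 6-OHDA, against 3.02, 12.2 and 3.8 CPM with vehicle, and Ifi27l2a 27.5, 62.2 and 17.4 CPM, against 30.3, 9.18 and 22.8 CPM. Both overlapped.

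The 6-OHDA samples were uneven. Sample 2 was the highest of the 3 in 211 of 275 member tests (76.7%), against 32.8% of all tests, and 35 of 37 members had it highest in more types than either other sample. In monocytes it was highest for 35 of the 37 members, in neutrophils for 35, in alveolar fibroblasts for 34 and in general capillary cells for 31. Its summed member level in monocytes was 2223 CPM, with 988.7 and 1045 CPM in 6-OHDA samples 1 and 3, against 837.8, 899.3 and 729.7 CPM in vehicle samples. All 3 thus lay above vehicle in monocytes, sample 2 far above. In general capillary cells the summed level was 1768, 2764 and 1713 CPM with 6-OHDA, against 1408, 1369 and 1481 CPM with vehicle, which was the same order. In neutrophils it was 1255, 3050 and 1365 CPM with 6-OHDA, against 833.5, 1210 and 1419 CPM with vehicle, where samples 1 and 3 lay within vehicle. Alveolar macrophages had 303.4, 379.8 and 306.3 CPM, against 327.2, 294.9 and 316.7 CPM with vehicle. Over types, the median ratio to the vehicle mean was 1.03, 1.69 and 1.08 in 6-OHDA samples 1 to 3.

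**Figure D3:**
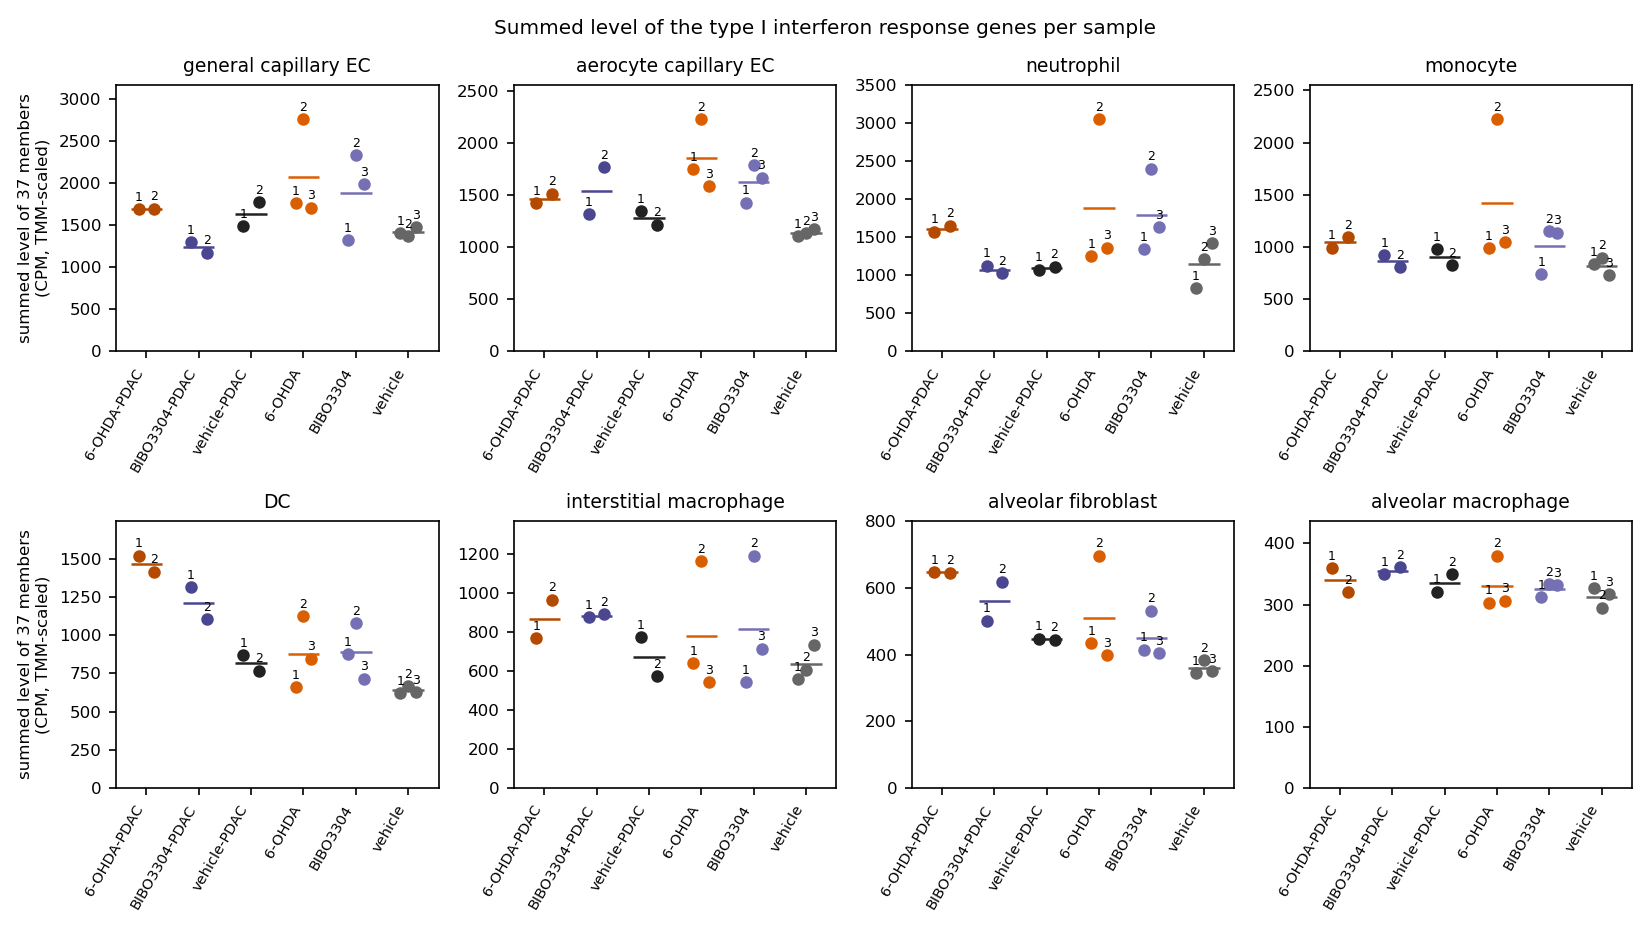
Summed level of the 37 members in 8 cell types (panels), in TMM-scaled CPM, with 1 numbered point per sample and a line at the mean of each group. The 6-OHDA sample 2 is at 2764 CPM in general capillary cells, 3050 CPM in neutrophils and 2223 CPM in monocytes, above the other 14 samples in these panels, while alveolar macrophages stay between 294.9 and 379.8 CPM in all 15 samples.

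More cells held a member transcript in these types. Each cell was thinned to 1000 transcripts, which left out 18.2% of cells with 6-OHDA and 22.9% with vehicle as too shallow. These shares are over all cell types, and losses within a type can differ more between groups. Vehicle monocytes were shallower (medians below), and 105, 183 and 101 of them were kept, against 214, 294 and 293 with 6-OHDA. Of monocytes, 62.6% (95% interval 55.8 to 69.1), 78.6% (73.4 to 83.1) and 57.3% (51.5 to 63.1) held a member transcript in 6-OHDA samples, against 54.3% (44.3 to 64.0), 44.3% (36.9 to 51.8) and 41.6% (31.9 to 51.8) in vehicle samples. The shares did not overlap between groups, although the intervals of 6-OHDA samples 1 and 3 reached that of vehicle sample 1. Without thinning they were 77.7, 87.4 and 76.6%, against 64.0, 55.7 and 47.8%. General capillary cells had 73.6, 87.4 and 70.9% with 6-OHDA, against 67.3, 59.1 and 64.8% with vehicle, and neutrophils 68.2, 86.4 and 55.8%, against 53.8, 41.7 and 54.8%. Both sets lay apart, but intervals overlapped in both types (67.9 to 78.7% in 6-OHDA sample 1 and 62.7 to 71.6% in vehicle sample 1 for general capillary cells, and 57.2 to 77.9% and 39.5 to 67.8% for neutrophils). In neutrophils the closest samples, 6-OHDA sample 3 and vehicle sample 3, had intervals of 39.9 to 70.9% and 38.7 to 70.2%. With cells thinned to 500 transcripts, neutrophils had 42.2 to 68.7% with 6-OHDA, against 23.5 to 42.3% with vehicle, and overlapped. Monocytes (36.7 to 59.1%, against 20.1 to 36.5%) and general capillary cells (48.7 to 68.3%, against 39.7 to 45.8%) stayed apart. Without thinning, general capillary cells had 76.8, 88.9 and 73.5%, against 73.9, 61.3 and 67.4%, and overlapped. AT2 cells, with the lowest member level of the types fitted, had 19.5, 25 and 21.5% with 6-OHDA, against 17.8, 20.5 and 26.3% with vehicle (unthinned 48.9, 50.6 and 37.3%, against 37.3, 31.3 and 43.0%). They are given for comparison only, since 13 members passed the filter in them. The share that free RNA may leave in any cell was not measured. The 10% of monocytes with most of them held 36.4, 34.9 and 39.2% of their member transcripts with 6-OHDA, against 39.2, 37.0 and 45.9% with vehicle. Monocytes had a median of 1865.5 to 2008.5 transcripts per cell with 6-OHDA and 1123 to 1414 with vehicle, and AT2 cells 2483 to 2813 and 1799 to 2097. Exact Clopper-Pearson intervals cover counting error only.

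**Figure D4:**
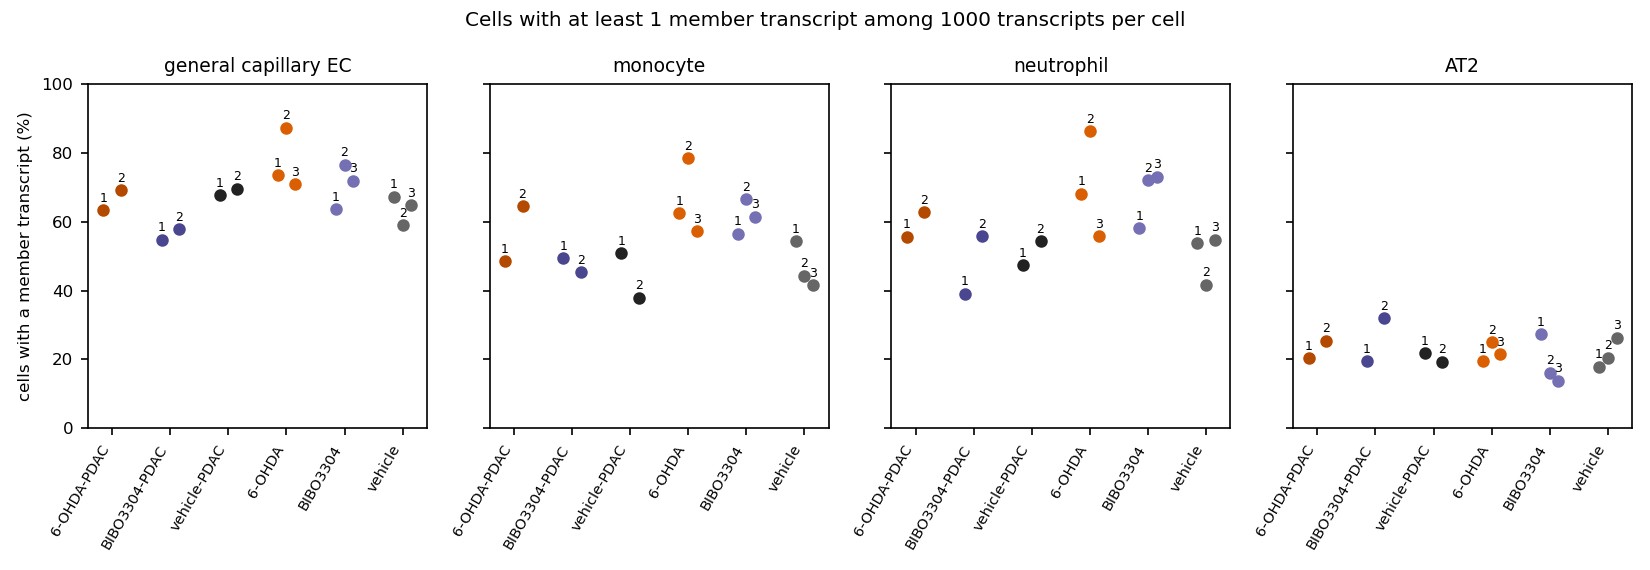
Percent of cells with at least 1 member transcript after thinning each cell to 1000 transcripts, in general capillary cells, monocytes, neutrophils and AT2 cells (panels), with 1 numbered point per sample in each group. The 3 6-OHDA samples lie above the 3 vehicle samples in the first 3 panels (57.3 to 78.6% against 41.6 to 54.3% in monocytes), and AT2 cells lie between 13.8 and 32.0% in all samples.

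Markers of alveolar macrophages were lower with 6-OHDA in many types, and none passed. Over 133 tests of the 12 markers the median log2 fold change with 6-OHDA was -0.58, and groups were apart and lower in 41. None of the 12 was at 0 in monocytes, where their sum was 379.9, 345.6 and 313.2 CPM with 6-OHDA, against 571.7, 535.3 and 452.3 CPM with vehicle. In dendritic cells 5 of 10 markers of plasmacytoid dendritic cells (pDC) passed as higher with 6-OHDA, Ccr9 (2.14), Tcf4 (1.28), Pacsin1 (2.25), Siglech (1.004) and Runx2 (1.30). In these cells 43 of 5730 genes were called. Over all types the pDC list had 5 higher and 0 lower calls of 52 tests, so its other markers did not pass. In alveolar macrophages themselves the members had the median of -0.03 given above. Mitochondrial percent and depth per cell were within 1.14 to 1.59% and 2078 to 2223 transcripts in the 3 6-OHDA samples, sample 2 included, and 1.502 to 1.99% and 1640 to 1906 in vehicle samples. The part of these in the result was not tested.

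BIBO3304 samples without PDAC cells also had mostly positive fitted values against vehicle, and no member passed the test. The median log2 fold change was 0.37, 207 of 275 member tests (75.3%) were above 0, and 50 had an unadjusted p under 0.05. By edgeR 0 passed, where 0.307% of all tests did, while DESeq2 called 2. Groups were apart and higher with BIBO3304 in 35 member tests (12.7%), against 9.21% of all tests, and lower in 9 (3.27%), against 10.0% of all tests. Without BIBO3304 sample 2 the median was 0.17, and groups were apart and higher in 42 of 257 member tests (16.3%), against 13.2% of all tests. The vehicle samples are the same as in the 6-OHDA comparison, so the 2 results share their controls.

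By role, the nucleic acid binders had a median of 0.43 with 14 of 65 tests apart and higher and none lower, and the ADP-ribosylation genes 0.43 with 37 of 39 above 0. The ISG15 system had 0.61, the IFIT and MX genes 0.55, other effectors 0.37 and sensors and transcription factors 0.18. In general capillary cells all 29 member tests were above 0 with a median of 0.46. Neutrophils had all 11 (0.83), dendritic cells 18 of 19 (0.59) and aerocytes 14 of 15 (0.58), whereas alveolar macrophages had 10 of 27 (-0.095) and AT2 cells 6 of 13 (-0.013). Without BIBO3304 sample 2 the medians were 0.24 in general capillary cells, 0.38 in neutrophils, 0.13 in dendritic cells and 0.43 in aerocytes.

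The smallest p values were those of the sensor gene Ifih1 and did not pass. In adventitial fibroblasts, which surround vessels and airways, Ifih1 had 92.3, 42.8 and 35.6 CPM with BIBO3304, against 23.0, 10.5 and 16.1 CPM with vehicle. The groups were apart, sample 1 being highest, and the log2 fold change was 1.70 ± 0.38 (adjusted p = 0.0609 by edgeR). In aerocytes it had 119, 137 and 95.1 CPM with BIBO3304, against 50.8, 53.6 and 38.8 CPM with vehicle, again apart (1.31 ± 0.33, adjusted p = 0.109; 1.16 without BIBO3304 sample 2). Herc6 in alveolar fibroblasts had 35.3, 62.9 and 41.3 CPM, against 24.3, 29.5 and 29.1 CPM with vehicle (0.77 ± 0.20, adjusted p = 0.0628). It passed where BIBO3304 sample 1 was left out (0.93, adjusted p = 0.0322). Samd9l in B cells, a restriction factor of poxviruses, had 143, 148 and 94.3 CPM with BIBO3304, against 76.6, 66.9 and 55.3 CPM with vehicle (0.95 ± 0.32, adjusted p = 0.146). Oasl2 in aerocytes had 63.9, 108 and 63.4 CPM, against 23.9, 32.2 and 52.9 CPM (1.09 ± 0.39, adjusted p = 0.344). All 5 were apart between groups.

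Members followed in aerocytes at lower counts behaved less evenly. Ifit1 had 17.4, 17.3 and 22.4 CPM with BIBO3304, against 0, 0 and 3.53 CPM with vehicle, and Ifit3 5.80, 17.3 and 14.9 CPM, against 2.99, 0 and 0 CPM. Both were apart between groups, on 45 and 36 transcripts over all samples, too few to pass the filter. Stat2 there had 183, 202 and 160 CPM with BIBO3304, against 170, 96.5 and 123 CPM with vehicle, and overlapped. BIBO3304 sample 2 had the highest summed level of its group in 15 of 19 types and led 55.6% of member tests, against 34.7% of all tests. It was also the deepest of these samples, with a median of 4846.5 transcripts per cell, against 2631 and 3534 in BIBO3304 samples 1 and 3 and 1640 to 1906 in vehicle samples. After thinning, 56.6, 66.6 and 61.5% of monocytes held a member transcript with BIBO3304 (unthinned 71.8, 92.4 and 82.4%), all above the 54.3% of the highest vehicle sample. Alveolar macrophage markers had a median log2 fold change of -1.16 over 133 tests, with 66 apart and lower and 1 called lower, and their part in the result was not tested.

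In seeded lungs, 6-OHDA-PDAC samples had mostly positive fitted values against vehicle-PDAC samples, among them in dendritic cells, neutrophils and alveolar fibroblasts, and no member passed. Of 267 member tests 185 (69.3%) were above 0, the median was 0.28 and 32 had an unadjusted p under 0.05. By edgeR 0 passed, where 0.405% of all tests did, and DESeq2 called 0. With 2 samples against 2, groups were apart and higher in 106 member tests (39.7%), against 17.3% of all tests, and lower in 22 (8.24%), against 17.5% of all tests. The IFIT and MX genes were apart and higher in 13 of 21 tests (median 0.52) and the ISG15 system in 11 of 19 (0.56). Alveolar fibroblasts had 29 of 33 member tests above 0 (median 0.53, 23 apart and higher, none lower), dendritic cells 16 of 19 (0.71, 14 higher) and interstitial macrophages 17 of 21 (0.64, 12 higher). Neutrophils had 10 of 11 (0.71, 9 higher and 1 lower). Aerocytes (0.058) and large-vessel endothelial cells (-0.097) were near 0.

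In alveolar fibroblasts Parp14 had 38.8 and 51.2 CPM in 6-OHDA-PDAC samples, against 25.7 and 22.5 CPM in vehicle-PDAC samples. The groups were apart (0.90 ± 0.21, edgeR adjusted p = 0.0918). Herc6 there had 57.4 and 53.6 CPM, against 35.9 and 27.5 CPM (0.79 ± 0.24, adjusted p = 0.209), and Stat2 76.3 and 69.6 CPM, against 55.3 and 45.0 CPM (0.53 ± 0.16, adjusted p = 0.226). In dendritic cells Trim30a, a negative regulator of inflammatory signalling in mice, had 193 and 167 CPM with 6-OHDA-PDAC, against 72.3 and 98.8 CPM with vehicle-PDAC (1.07 ± 0.31, adjusted p = 0.0562). Mx1 in these cells had 60.8 and 64.9 CPM, against 16.9 and 23.1 CPM (1.66 ± 0.48, adjusted p = 0.0602). All 5 were apart between groups and none passed. Of the fits that leave 1 sample out, 1 called a member, Oasl1 in dendritic cells without vehicle-PDAC sample 1 (3.44, adjusted p = 0.0402).

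Members at low counts in alveolar fibroblasts were apart and higher in 4 of the 6 followed there. Isg15 had 5.70 and 5.69 CPM with 6-OHDA-PDAC, against 2.81 and 2.08 CPM with vehicle-PDAC, Ifit1 5.70 and 5.69 CPM, against 2.20 and 2.08 CPM, and Ifit3 18.5 and 11.9 CPM, against 5.41 and 2.5 CPM. Oasl2 had 17.8 and 24.4 CPM, against 10.2 and 5.83 CPM. Rsad2 (3.21 and 2.44 CPM, against 3.01 and 2.91 CPM) and Irf7 (4.28 and 12.7 CPM, against 4.61 and 4.58 CPM) overlapped. Markers of pDC, the main makers of interferon alpha, also rose in dendritic cells, 6 of the 10 passing with log2 fold changes of 1.35 to 3.14. In these cells 162 of 5730 genes were called in this comparison. Over all types the list had 6 higher and 1 lower calls of 48 tests, where 0.405% of all tests passed. Bst2 is both a member and one of these markers. The sum of the 10 markers in dendritic cells was 4059 and 6033 CPM with 6-OHDA-PDAC, against 1788 and 1902 CPM with vehicle-PDAC, none of the 10 being at 0. Without PDAC cells it was 3614, 4274 and 2932 CPM with 6-OHDA, 2715, 2607 and 2366 CPM with BIBO3304 and 1356, 1520 and 1555 CPM with vehicle. Their part in the member levels was not tested. Alveolar macrophage markers over all types, alveolar macrophages included, had a median of -1.21 in this comparison. Of 124 tests 56 were apart and lower and 4 were called lower, all 4 in interstitial macrophages.

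BIBO3304-PDAC samples had fitted values on both sides of 0 against vehicle-PDAC samples, and no member passed. The median was 0.10 over 275 member tests, 158 were above 0 and 24 had an unadjusted p under 0.05. By edgeR 0 passed, where 0.0317% of all tests did, and DESeq2 called 0. Groups were apart and higher in 74 member tests (26.9%), against 17.2% of all tests, and lower in 51 (18.5%), against 18.5% of all tests, so the lower share equals the background. Without BIBO3304-PDAC sample 2 the median was 0.036, without sample 1 it was 0.19, and without vehicle-PDAC sample 2 it was 0.16. Dendritic cells (0.69, 14 of 19 above 0), interstitial macrophages (0.62) and alveolar fibroblasts (0.38, 29 of 33) had medians above 0. General capillary cells (-0.29, 6 of 29) and monocytes (-0.17, 10 of 29) had medians below 0, and differences between types were not tested.

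Bst2 in dendritic cells had 114 and 101 CPM in BIBO3304-PDAC samples, against 28.9 and 47.7 CPM in vehicle-PDAC samples. It was apart by a wide margin but did not pass (1.504 ± 0.35, edgeR adjusted p = 0.0945). Trim30a in these cells had 167 and 132 CPM, against 72.3 and 98.8 CPM (0.83 ± 0.30, adjusted p = 0.285), and Herc6 in aerocytes 141 and 345 CPM, against 124 and 51.4 CPM (1.14 ± 0.40, adjusted p = 0.454). On the low side, Ifih1 in general capillary cells had 55.3 and 43.8 CPM, against 87.4 and 124 CPM (-1.01 ± 0.35, adjusted p = 0.360). Ifit2 in alveolar fibroblasts had 14.6 and 17.9 CPM, against 21.0 and 33.3 CPM (-0.75 ± 0.28, adjusted p = 0.331). Within 1 family Ifit2 was thus lower with BIBO3304-PDAC in alveolar fibroblasts while Ifit1 (3.09 and 11.9 CPM, against 2.20 and 2.08 CPM) and Ifit3 (8.72 and 20.8 CPM, against 5.41 and 2.5 CPM) were higher in both samples. The pDC marker sum in dendritic cells was 3428 and 3418 CPM with BIBO3304-PDAC, against 1788 and 1902 CPM.

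PDAC cells under vehicle went with small differences in the members. The median over 275 tests was 0.17, 181 (65.8%) were above 0 and 14 had an unadjusted p under 0.05. By edgeR 0 passed, where 0.00176% of all tests did, and DESeq2 called 0. Groups were apart and higher with PDAC in 53 member tests (19.3%), against 9.51% of all tests, and lower in 7 (2.55%), against 9.22% of all tests. The nucleic acid binders had the highest median by role, 0.34, with 18 of 65 tests apart and higher and none lower. Among the 5 smallest p at a mean of at least 20 CPM was Eif2ak2, the PKR gene, in both fibroblast types. In alveolar fibroblasts it had 33.9 and 30.0 CPM in vehicle-PDAC samples, against 22.2, 19.1 and 17.9 CPM in vehicle samples (0.69 ± 0.24, edgeR adjusted p = 0.434). In adventitial fibroblasts it had 28.4 and 34 CPM, against 21.3, 14.4 and 17.0 CPM (0.79 ± 0.28, adjusted p = 0.9997). Samd9l in large-vessel endothelial cells had 59.8 and 37.9 CPM, against 20.7, 21.6 and 17.7 CPM (1.34 ± 0.44, adjusted p = 0.922). Oasl2 in aerocytes had 91.8 and 72.0 CPM, against 23.9, 32.2 and 52.9 CPM (1.18 ± 0.44, adjusted p = 0.824), and Ifih1 in dendritic cells 111 and 41.2 CPM, against 32.2, 40.6 and 26.2 CPM (1.26 ± 0.45, adjusted p = 0.9997). All 5 were apart, Ifih1 by less than 1 CPM. Vehicle-PDAC sample 2, which held no annotated cancer cell, had a median ratio to the vehicle mean of 1.13 in summed level and sample 1 of 1.07.

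PDAC cells under 6-OHDA went with 1 member that passed, Oasl1 in dendritic cells. It had 157 and 49.5 CPM in 6-OHDA-PDAC samples, against 0, 4.19 and 0 CPM in 6-OHDA samples. This rests on 47 transcripts against 1, a ratio of 72.4 per transcript of depth with a 95% counting interval of 12.4 to 2920 (edgeR log2 fold change 5.92 ± 1.05, adjusted p = 0.0158). The call was lost without 6-OHDA sample 1 or 6-OHDA-PDAC sample 1, with adjusted p up to 0.144, and DESeq2 called 0 members. In the other unseeded groups Oasl1 in these cells had 41.2, 51.2 and 8.59 CPM with BIBO3304 and 22.7, 28.1 and 18.7 CPM with vehicle. Dendritic cells without PDAC cells were thus lowest in Oasl1 under 6-OHDA, where the pDC marker sum was highest among unseeded groups.

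Over all 267 member tests under 6-OHDA the median was -0.020 and 129 (48.3%) were above 0. Of all tests 0.729% passed. Groups were apart and higher with PDAC in 33 member tests (12.4%), against 12.1% of all tests, and lower in 23 (8.61%), against 11.9%, shares close to the background. The median rested on 6-OHDA sample 2 and was 0.30 without it. Alveolar fibroblasts (0.43, 28 of 33 above 0), dendritic cells (0.65, 15 of 19) and AT2 cells (0.54, 12 of 13) were above 0, while monocytes (-0.44, 4 of 29) and aerocytes (-0.23, 3 of 15) were below. Without 6-OHDA sample 2 the medians were 0.83, 0.80 and 0.72 in the first 3 types, 0.079 in monocytes and -0.13 in aerocytes. Stat2 in alveolar fibroblasts had 76.3 and 69.6 CPM with PDAC, against 53.3, 52.7 and 45.7 CPM without (0.53 ± 0.15, edgeR adjusted p = 0.0912). Mx1 in dendritic cells had 60.8 and 64.9 CPM, against 6.04, 33.6 and 20.8 CPM (1.73 ± 0.51, adjusted p = 0.181). Trim30a in general capillary cells had 87.4 and 114 CPM, against 163, 173 and 145 CPM (-0.67 ± 0.21, adjusted p = 0.231), and Irf7 in monocytes 19.5 and 25.5 CPM, against 42.7, 74.2 and 36.8 CPM (-1.18 ± 0.38, adjusted p = 0.431). These 4 were apart and did not pass. Oasl2 in alveolar fibroblasts passed where 6-OHDA sample 2 was left out (2.19, adjusted p = 0.0189).

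PDAC cells under BIBO3304 went with 7 member calls, of which 3 were higher and 4 lower. That is 7 of 275 member tests, a smaller share than the 4.25% of all tests that passed (4830 of 113537). In the types with member calls, alveolar fibroblasts had 1256 of 12626 genes called and monocytes 626 of 6924. General capillary cells had 366 of 8148 genes called and dendritic cells 77 of 5730. Groups were apart and higher with PDAC in 50 member tests (18.2%), against 19.7% of all tests, and lower in 42 (15.3%), against 19.1%, also near the background. DESeq2 called 7 as well, and 53 had an unadjusted p under 0.05. The median was -0.015, and types stood on both sides. General capillary cells had 1 of 29 member tests above 0 (median -0.71), neutrophils 1 of 11 (-0.82) and large-vessel endothelial cells 3 of 17 (-0.56). AT2 cells had 11 of 13 above 0 (0.81), dendritic cells 14 of 19 (0.63), alveolar fibroblasts 25 of 33 (0.50) and alveolar macrophages 20 of 27 (0.33). Without BIBO3304 sample 2 the median over member tests was 0.11, with -0.46 in general capillary cells, -0.598 in neutrophils and 0.72 in alveolar fibroblasts.

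Bst2 rose in dendritic cells, to 114 and 101 CPM in BIBO3304-PDAC samples, against 30.9, 40.1 and 37.2 CPM in BIBO3304 samples (1.55 ± 0.34, edgeR adjusted p = 0.0402). The pDC marker sum, which contains it, was 3428 and 3418 CPM with PDAC, against 2715, 2607 and 2366 CPM. The Bst2 call was lost without any 1 of the 5 samples, with adjusted p of 0.0622 to 0.487 and fold changes of 1.43 to 1.64. In general capillary cells Ifih1 fell to 55.3 and 43.8 CPM, against 77.0, 143 and 106 CPM without PDAC (-1.11 ± 0.32, adjusted p = 0.0491). Parp14 there fell to 169 and 134 CPM, against 190, 311 and 293 CPM (-0.78 ± 0.22, adjusted p = 0.0479). Both were apart between groups. Both were lost in 4 of the 5 fits that leave 1 sample out, being kept without BIBO3304 sample 1.

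Adar in monocytes fell to 18.9 and 21.6 CPM with BIBO3304-PDAC, against 38.5, 67.3 and 54.1 CPM with BIBO3304 (-1.45 ± 0.40, edgeR adjusted p = 0.0243). Some markers of monocyte subsets changed in the same cells and comparison, where 626 of 6924 genes were called. The other markers of the list are given only in the sum and counts below, and a shift of subsets was not tested. Ace fell to 118 and 114 CPM with BIBO3304-PDAC, against 353, 404 and 319 CPM with BIBO3304, and Cd300e and Treml4 fell too (-1.68 and -1.13), all 3 being markers of non-classical monocytes. Ccr2, a marker of classical monocytes, rose to 154 and 245 CPM, against 76.9, 31.4 and 85.5 CPM. The 10 monocyte markers summed to 1938 and 1878 CPM, against 2253, 2353 and 2554 CPM, with none at 0. Over all types they had 15 higher and 4 lower calls of 108 tests, where 4.25% of all tests passed. Their part in the fall of Adar was not tested. Ifit2 in alveolar fibroblasts fell to 14.6 and 17.9 CPM, against 33.9, 37.8 and 25.5 CPM (-1.04 ± 0.26, adjusted p = 0.0173). Adar edits double-stranded RNA and Ifit2 encodes an RNA-binding antiviral protein, and both were apart between groups. The 2 calls were lost without BIBO3304 sample 2 or either BIBO3304-PDAC sample, with adjusted p up to 0.209 for Adar and 0.168 for Ifit2. Isg15 and Rsad2 in alveolar fibroblasts passed at means under 20 CPM and were picked out after their values were seen. Isg15 rose to 4.22 and 9.92 CPM, against 0.71, 1.58 and 2.22 CPM, on 25 and 27 transcripts (1.93 ± 0.60, adjusted p = 0.0488), and was lost without BIBO3304 sample 1 or 2 or BIBO3304-PDAC sample 2. Rsad2 had 0.56 and 29.8 CPM, against 0.24, 0.32 and 0.79 CPM, on 32 and 8 transcripts, and the groups overlapped. Its fitted change of 4.54 ± 1.11 (adjusted p = 0.0173) was 0.25 with an adjusted p of 0.949 without BIBO3304-PDAC sample 2. Without BIBO3304 sample 2, which had the highest member level of its group, none of the 7 calls remained.

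**Figure D5:**
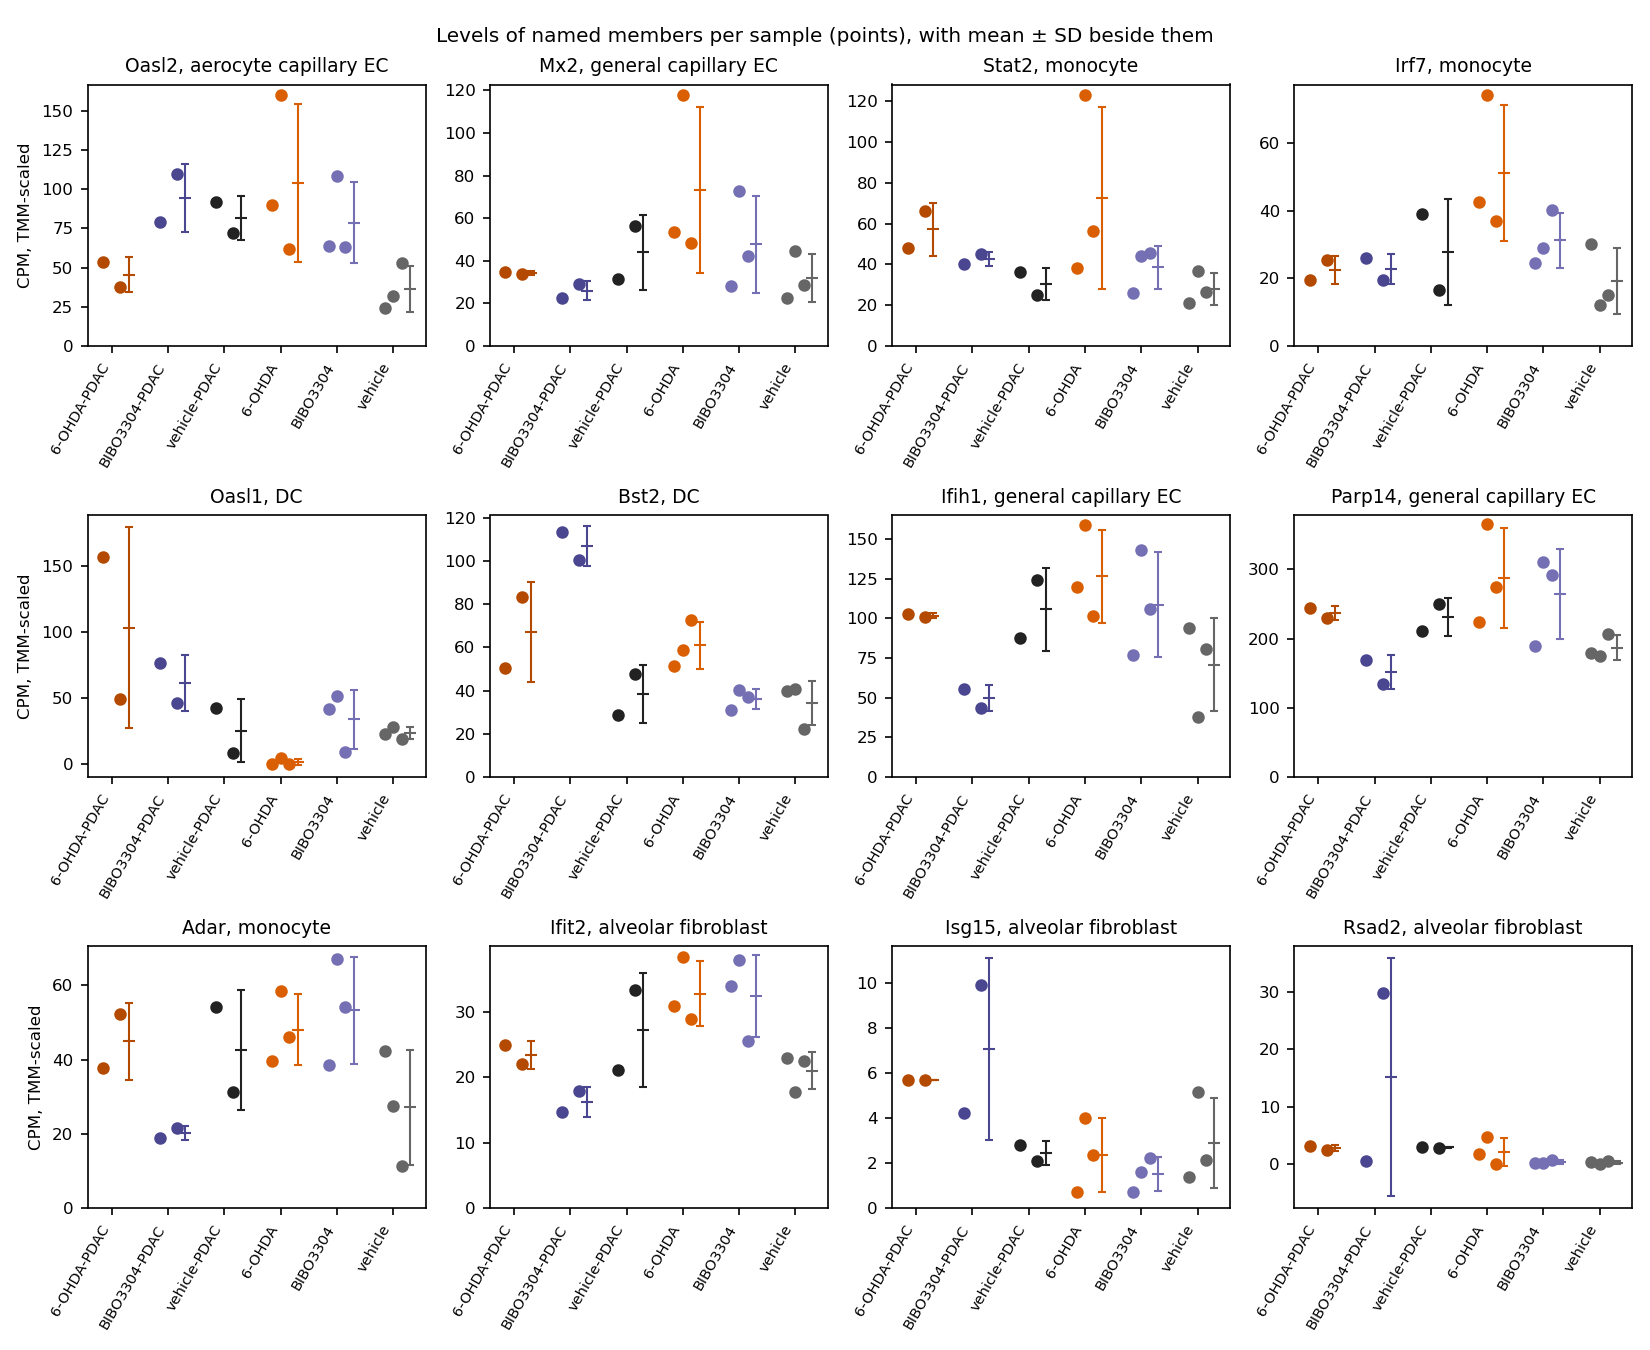
Levels in TMM-scaled CPM of 12 members in the cell type named above each panel, with 1 point per sample in each group and the mean ± SD beside them. Oasl1 in dendritic cells is at 157 and 49.5 CPM with 6-OHDA-PDAC, against 0, 4.19 and 0 CPM with 6-OHDA, and Bst2 there is at 114 and 101 CPM with BIBO3304-PDAC; Rsad2 in alveolar fibroblasts reaches 29.8 CPM in 1 BIBO3304-PDAC sample.

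In the same comparison, alveolar macrophage markers had a median log2 fold change of 1.37 over 133 tests, with 20 called higher and 1 lower, where 4.25% of all tests passed. Their sum in general capillary cells was 458.2 and 851.8 CPM with BIBO3304-PDAC, against 296.7, 161.2 and 337.5 CPM with BIBO3304. The part of this in the falls there was not tested.

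Whether a drug's difference depends on PDAC cells was tested as an interaction, and no member passed for either drug. For 6-OHDA 0 of 267 member tests passed, where 0.00744% of all tests did, 15 had an unadjusted p under 0.05, and the median was -0.17. The smallest p were those of Oasl1 in dendritic cells (5.70 ± 1.33, edgeR adjusted p = 0.496), Oasl2 in aerocytes (-2.40 ± 0.63, 0.865), Trim30a in general capillary cells (-0.996 ± 0.28, 0.682), Parp9 there (-1.09 ± 0.36, 0.860) and Irf7 in monocytes (-1.81 ± 0.61, 0.949). The Oasl1 interaction passed without vehicle-PDAC sample 1 (7.26, adjusted p = 0.0256). Oasl2 in aerocytes shows the form of the negative values: 53.4 and 37.4 CPM with 6-OHDA-PDAC and 91.8 and 72.0 CPM with vehicle-PDAC, against 90.0, 160 and 61.7 CPM with 6-OHDA and 23.9, 32.2 and 52.9 CPM with vehicle. For BIBO3304 0 of 275 passed, where 0.413% of all tests did, 29 had an unadjusted p under 0.05, and the median was -0.27. DESeq2 called 0 member interactions for 6-OHDA and 1 for BIBO3304. Among members with a mean of at least 20 CPM, Ifit2 in alveolar fibroblasts (-1.34 ± 0.34, edgeR adjusted p = 0.0664) and Adar in monocytes (-2.12 ± 0.57, 0.0748) came closest, and each passed without BIBO3304 sample 3 (adjusted p of 0.0449 and 0.0488). They were followed by Ifih1 in general capillary cells (-1.51 ± 0.42, 0.189), Parp14 there (-1.06 ± 0.31, 0.193) and Ifih1 in adventitial fibroblasts (-1.75 ± 0.60, 0.278). Below that mean, Isg15 in alveolar macrophages had the opposite sign (3.38 ± 0.95, 0.129). The nucleic acid binders had the lowest median by role in both, -0.45 for 6-OHDA and -0.64 for BIBO3304.

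Upstream of the members, transcripts of the interferon genes Ifnb1 and Ifnk were all but absent. Of 21 ligand genes listed 3 were in the matrix, with 4 transcripts of Ifnb1, 8 of Ifnk and 274 of Ifng in all cells. Natural killer cells held 126 of those of Ifng, at 42.85 CPM. The other ligand genes listed were not in the matrix, so their levels could not be read. The receptor genes and the genes of their kinases were measured too. None of them passed for 6-OHDA or BIBO3304 against vehicle, for BIBO3304-PDAC against vehicle-PDAC or for vehicle-PDAC against vehicle. Ifnar2, a chain of the type I receptor, rose in dendritic cells of 6-OHDA-PDAC samples (1.31 ± 0.29, edgeR adjusted p = 0.0141), with means of 384 CPM and 158 CPM with vehicle-PDAC. With PDAC cells against none, Jak1 fell in interstitial macrophages under 6-OHDA (-1.56 ± 0.32, adjusted p = 0.0038) and under BIBO3304 (-2.60 ± 0.34, adjusted p = 5.5e-05). Of the 6443 genes tested in that type, 594 were called under 6-OHDA and 1158 under BIBO3304. Jak2 fell there too (-0.88 and -0.85), while under BIBO3304 it rose in monocytes (0.64) and Il10rb fell in general capillary cells (-1.70). Of 13 sensors and adaptors, Myd88 in alveolar fibroblasts fell with BIBO3304 (-0.71, adjusted p = 0.0404). Under BIBO3304 with PDAC it rose there (0.83) and in AT2 cells (1.04), as did Sting1 in alveolar fibroblasts (0.89), while Tlr7 fell in interstitial macrophages (-1.999). These are 3 higher and 1 lower calls of 89 tests, near the 4.25% of all tests that passed there. The receptor and kinase calls of that comparison were among 136 tests. Of all tests, 0.729% passed for PDAC under 6-OHDA, 0.405% for 6-OHDA-PDAC against vehicle-PDAC and 0.307% for BIBO3304 against vehicle.

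Other interferon-stimulated genes are given beside the members. For 6-OHDA without PDAC cells, 33 further genes of this kind had a median of 0.26 over 284 tests (34 apart and higher, 0 called), and 22 genes more typical of interferon gamma 0.40 over 170 (26 apart and higher, 0 called). For BIBO3304 without PDAC cells the medians were 0.10 and 0.23, and the interferon gamma-induced GTPase gene Iigp1 rose in alveolar fibroblasts (1.07 ± 0.20, edgeR adjusted p = 0.0214). For 6-OHDA-PDAC against vehicle-PDAC, Iigp1 rose in the same cells (1.25), Ifi209 in dendritic cells (1.59) and Cxcl9 (2.86) and Gbp2 (1.86) in interstitial macrophages. With PDAC against none, the gamma-typical list had 5 higher calls of 163 tests under 6-OHDA, Cxcl9 in alveolar fibroblasts, monocytes and interstitial macrophages and Ciita and Cd274 in interstitial macrophages. Of all tests 0.729% passed there, and the other 33 genes had 0 higher and 2 lower calls of 278 tests. Under BIBO3304, where 4.25% of all tests passed, the gamma-typical list had 18 higher and 4 lower of 170, and the other 33 genes 12 higher and 10 lower of 284. The lower ones included Ifi207, Ifi203, Ifi204 and Mndal in interstitial macrophages, all of 1 family, and Helz2 and Slfn5 in general capillary cells, the type where 2 members fell. Over all genes in this comparison, 1158 of 6443 were called in interstitial macrophages and 366 of 8148 in general capillary cells.

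The seeded cancer cells carried the members too. Their summed level was 391 and 637 CPM in 6-OHDA-PDAC samples (75 and 71 cells), 543 and 672 CPM in BIBO3304-PDAC samples (33 and 73 cells) and 360 CPM in vehicle-PDAC sample 1 (56 cells). Only 1 vehicle-PDAC sample held such cells, so no test was made. All 4 treated samples lay above it in the sum. Rsad2 had 9.12 and 40.4 CPM with BIBO3304-PDAC, and 0.99 and 2.95 CPM with 6-OHDA-PDAC. BIBO3304-PDAC sample 2 was thus the highest for Rsad2 in cancer cells and in alveolar fibroblasts. Oasl1 had 9.44 and 10.8 CPM with 6-OHDA-PDAC, 19.4 and 19.7 CPM with BIBO3304-PDAC and 3.1 CPM with vehicle-PDAC. Eif2ak2 had 60.1 and 93.8 CPM with 6-OHDA-PDAC, 68.4 and 63.8 CPM with BIBO3304-PDAC and 69.9 CPM with vehicle-PDAC, which lay among them. Trim30a had 26.8 and 28.5 CPM with 6-OHDA-PDAC, 19.4 and 40.4 CPM with BIBO3304-PDAC and 9.83 CPM with vehicle-PDAC.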

How the data were processed

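Single cells of mouse lung were barcoded in 16 sublibraries, which are the deposited samples, so the 6 groups were taken from the condition and seeding columns of the authors' deposited cell table. The authors deposited a matrix of raw transcript counts and a cell table with their cell types and the percent of mitochondrial transcripts. The submitters' processing notes list Seurat 5.3.0 and the build mm39, and the files hold no coordinates. For each cell type the counts of a sample's cells were added up (at least 20 cells) and tested with edgeR 4.0.16 (filterByExpr, TMM, quasi-likelihood, all 6 groups in 1 fit, at least 2 samples in each group compared) and Benjamini-Hochberg adjustment over all genes within a type. DESeq2 1.42.0, no filter, at least 50 cells, only the groups compared, a replicate block and leaving out each sample were alternatives, and the fit was tested on simulated data. Genes named were called members with a mean of at least 20 CPM, up to 12 per comparison, or, with under 5 calls, also the 5 smallest p at that mean. The members and lists were chosen with earlier results of these data known. Doublets were not called here. A gene of the signalling pathway outside the members is not reported here. Total counts per sample and their range are given above.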

Additional observations from a re-analysis of the deposited data

How the results depend on the processing

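Counts of member calls and median log2 fold changes are given where they left the range of the values above, and the cause was not tested except where fewer samples or genes were used. The share of all genes called was not computed under these alternatives, DESeq2 included. The counts of calls below therefore have no background beside them and show no excess in the members. Without the filter on low counts the member calls numbered 10 for 6-OHDA against vehicle, 6 for BIBO3304 against vehicle, 6 and 1 for 6-OHDA-PDAC and BIBO3304-PDAC against vehicle-PDAC, 2, 6 and 24 for PDAC against none under vehicle, 6-OHDA and BIBO3304, and 1 and 7 for the interactions of 6-OHDA and BIBO3304, and the median for 6-OHDA-PDAC against vehicle-PDAC was 0.21. With at least 50 cells that median was 0.31. With DESeq2 the calls were 2 for BIBO3304 against vehicle, 0 for PDAC under 6-OHDA and 1 for the BIBO3304 interaction. With only the groups compared in the fit there was 1 call for BIBO3304 against vehicle, 1 for 6-OHDA-PDAC against vehicle-PDAC (median 0.26), 2 each for PDAC under 6-OHDA and BIBO3304, and a median of 0.20 for PDAC under vehicle. The replicate numbers did not pair the samples: deviations of same-numbered samples of different groups correlated from -0.209 to 0.181. With the replicate block the calls were 2 for 6-OHDA-PDAC against vehicle-PDAC (median 0.24), 1 for BIBO3304-PDAC against vehicle-PDAC and 11 for PDAC under BIBO3304, and the median for PDAC under vehicle was 0.13. A crossed pairing, chosen after seeing the data, gave 1 call and a median of 0.25 for 6-OHDA-PDAC against vehicle-PDAC. Leaving out 1 sample at a time, calls and medians ranged from 0 to 0 and 0.14 to 0.60 for 6-OHDA against vehicle, 0 to 1 and 0.17 to 0.42 for BIBO3304 against vehicle, 0 to 1 and 0.26 to 0.36 for 6-OHDA-PDAC against vehicle-PDAC, and 0.036 to 0.19 in median for BIBO3304-PDAC against vehicle-PDAC. For PDAC against none the medians ranged from 0.16 to 0.22 under vehicle, and calls and medians from 0 to 2 and -0.12 to 0.30 under 6-OHDA and from 0 to 7 and -0.090 to 0.11 under BIBO3304. Interaction calls ranged from 0 to 1 for 6-OHDA, the 1 being without vehicle-PDAC sample 1, and from 0 to 4 for BIBO3304, the 4 being without vehicle-PDAC sample 2. Of 275 such refits of the 45 named tests, 249 kept their side of the threshold, 21 lost a call, 5 gained one and 0 changed sign. Most of these 45 tests had not passed to begin with, so keeping their side of the threshold is no sign of stability. All 21 losses fell on the named tests that passed. Each of those was lost in at least 2 of its 5 refits, and Bst2 in dendritic cells in all 5. Depth limits members at a few transcripts per sample, such as Oasl1 in dendritic cells and Rsad2 in alveolar fibroblasts.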
